A study of Mus musculus with 36 samples.

Results

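The 9 genes described here, Saa3, Lcn2, Ptx3, Hp, C3, Cfb, Slpi, S100a8 and S100a9, encode secreted proteins of the acute-phase response and of complement. They were taken by symbol from the 52636 gene identifiers counted in each library, and all 9 of 9 had enough counts to be tested. RNA-seq was of mouse bone marrow-derived macrophages, which are marrow cells from femur and tibia grown in M-CSF, the growth factor of macrophages. The cells came from wild-type C57BL/6N mice (WT) and from mice labelled N4bp1 knockout (KO). Every group received R837 (imiquimod, a small-molecule agonist of the endosomal RNA sensor TLR7), for 3 h or 7 h. In the other groups actinomycin D (ActD, a DNA-binding blocker of transcription) was added after 3 h of R837 and left for 0.5, 1, 2 or 4 h. These 2 genotypes and 6 conditions gave 12 groups of 3 libraries, 36 in all, and the labels describe the 3 as macrophages of 3 individual mice. Untreated macrophages were not analysed here, so each level below is one reached under R837. The strain of the KO mice, the age and sex of all mice and the part of N4bp1 that was removed were not stated in the labels.

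The acute-phase response is the rise of a set of secreted proteins that follows infection or injury. The liver makes most of them, driven by interleukins and by transcription factors of the C/EBP, NF-κB and STAT families, but macrophages make some themselves. Serum amyloid A proteins bind lipids, lipocalin 2 (Lcn2) withholds iron from bacteria by binding their siderophores, haptoglobin (Hp) captures free hemoglobin, and pentraxin 3 (Ptx3) is a soluble pattern-recognition protein that binds microbes and complement C1q. Complement C3 is the protein on which the complement pathways converge, and factor B (Cfb) supplies the protease of the alternative pathway. Slpi inhibits the serine proteases of neutrophil granules, and S100a8 and S100a9 encode the calgranulins, which pair to form the metal-binding protein calprotectin. N4bp1 encodes a suppressor of cytokine responses in macrophages.

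Libraries held 20.27 to 46.11 M counts (median 26.26 M), of which the 9 genes together took 0.165% in the lowest library, a WT library at 3 h, and 2.89% in the highest, a KO library at 7 h. Levels below are in CPM, counts scaled to library size by the trimmed mean of M-values (TMM). The N4bp1 transcript was present in the KO libraries: it lay at 81.32 to 85.97 CPM in KO and 125.4 to 147.3 CPM in WT at 3 h, and at 141.3 to 145.3 and 169.8 to 182.5 CPM at 7 h. After 4 h of ActD the order turned, with 76.81 to 94.19 CPM in KO and 53.42 to 63.31 CPM in WT. A count over the whole gene cannot show whether the removed part is missing, so these values do not check the genotypes, which are used as labelled. Macrophage markers summed to 17700 to 48330 CPM, led by Lyz2 and Adgre1, and the 5 hepatocyte markers, Alb among them, stayed below 0.1 CPM in all 36 libraries. Fibroblast markers, led by Col1a2 and Col3a1, summed to 12.54 to 25.24 CPM in WT and 30.5 to 42.06 CPM in KO, and neutrophil markers, led by Chil3 and Ngp, to 281.7 to 423.5 CPM in WT and 385.9 to 520.8 CPM in KO. Markers of B and plasma cells, led by Ighm and Igha, summed to 36.71 to 61.68 CPM in WT and 70.99 to 110.7 CPM in KO. Those of dendritic cells, mostly H2-Ab1 and then Itgax, summed to 95.66 to 138.9 and 153 to 194.8 CPM. Those of T and NK cells, led by Cd4 and Cd8a, summed to 10.58 to 21.07 and 19.65 to 35.32 CPM. Within this last set the markers went both ways: Cd4 was higher and Cd8a lower in KO in all 6 conditions. At 3 h Cd4 lay at 7.96 CPM in WT and 21.71 in KO, and Cd8a at 4.316 and 2.187. Of 7 tested dendritic cell markers, 3 were higher and 2 lower in KO at 3 h, and 3 higher and 1 lower at 7 h. Of all genes 15.2% were higher and 12.6% lower at 3 h, and 15.5% and 15.1% at 7 h. In the neutrophil set 6 of 16 markers were higher and 0 lower in KO at 3 h, while Camp had means of 29.87 CPM in WT and 24.38 in KO. All 5 sets had the higher mean sum in KO in all 6 conditions, beside every KO minus WT difference below, and their part in those differences was not tested. In bulk RNA, fewer cells of a type and less RNA per cell cannot be told apart.

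Promoter sequences from RefSeq (GRCm38.p6) were matched to 7 of the 9 genes; Hp and Cfb are named only. The 250 bases before the start site are shown for Saa3, which took most counts of the 9, Ptx3, which differed most between genotypes, and C3, which had more counts than Cfb, the other complement gene of the 9. They lie at chr7:46715677-46715926 (minus strand, its last bases inside the longer GENCODE gene model), chr3:66219637-66219886 (plus strand) and chr17:57228137-57228386 (minus strand). Capitals mark matches to TTNNGNAA, a loose form of the C/EBP binding motif, on either strand.
Saa3: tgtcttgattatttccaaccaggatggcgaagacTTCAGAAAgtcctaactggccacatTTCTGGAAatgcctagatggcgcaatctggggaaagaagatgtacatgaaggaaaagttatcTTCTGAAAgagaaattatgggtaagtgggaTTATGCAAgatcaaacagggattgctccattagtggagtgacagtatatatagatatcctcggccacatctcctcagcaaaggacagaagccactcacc
Ptx3: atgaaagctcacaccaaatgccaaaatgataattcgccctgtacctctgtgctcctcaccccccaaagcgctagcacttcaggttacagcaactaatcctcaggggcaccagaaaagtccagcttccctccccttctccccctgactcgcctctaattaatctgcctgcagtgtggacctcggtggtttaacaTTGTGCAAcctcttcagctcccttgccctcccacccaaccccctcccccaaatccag
C3: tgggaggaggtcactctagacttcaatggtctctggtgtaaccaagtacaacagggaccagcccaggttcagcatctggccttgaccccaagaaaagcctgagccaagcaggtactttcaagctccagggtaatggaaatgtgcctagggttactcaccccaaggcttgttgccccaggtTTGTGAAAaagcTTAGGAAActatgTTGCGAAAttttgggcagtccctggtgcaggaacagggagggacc
The C/EBP letters were found in 7 of the 7 promoters, at 4 places in Saa3, 3 in C3 and 1 in Ptx3, where the match lies 57 to 50 bases before the start. The motif is short and common: 36.8% of the 32851 RefSeq promoter windows of the same length held it. The NF-κB consensus was found in none of the 7 (3.9% of all promoters) and the STAT motif TTCNNNGAA in none (7.02%). TATAAA was found in S100a8 alone, 30 to 25 bases before its start, against 12.4% of all promoters. Both strands were searched, no matches of different motifs overlapped, and a missing match says only that these letters are not in this window.

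Per kilobase of the gene width that came with the counts, the calgranulins led at 3 h in WT, and Saa3 led at 7 h. That width was 2606 bases for Saa3, 486 for S100a8 and 522 for S100a9. Whether it is the length of the transcript was not checked. In CPM, which does not use width, Saa3 led at 3 h in WT, with 947.8 against 304.4 of S100a9 and 207.8 of S100a8. In the authors' RPKM (reads per kilobase of width, scaled to library size) at 3 h, WT held 571.5 ± 61.5 of S100a9 (SD, n = 3), 418.9 ± 51.8 of S100a8, 356.4 ± 111 of Saa3, 104 ± 10.4 of Lcn2, 72.37 ± 10.4 of Hp, 50.37 ± 9.76 of C3, 6.589 ± 0.707 of Slpi, 0.8419 ± 0.185 of Cfb and 0.6999 ± 0.124 of Ptx3. The neighbours S100a8 and Saa3, and Cfb and Ptx3, did not differ beyond their spread. By 7 h in KO the order on the same scale was Saa3 (8443 ± 265 RPKM), Lcn2 (1060 ± 28.2), S100a8 (989.3 ± 25), Hp (940 ± 35.7), S100a9 (425 ± 6.95), C3 (137.2 ± 4.38), Slpi (36.68 ± 3.23), Cfb (12.01 ± 0.782) and Ptx3 (7.291 ± 0.422). In KO, Saa3 already had the highest mean at 3 h, by less than the sum of its SD and that of S100a9 (627.3 ± 78.7 RPKM, beside 536.1 ± 73.9 of S100a9 and 390.6 ± 58.7 of S100a8), and in WT at 7 h Saa3 (5573 ± 342) was followed by S100a8 (561.9 ± 21.2), Lcn2 (515.3 ± 19.4), Hp (404.3 ± 18.7) and S100a9 (399.5 ± 5.41). The gap between S100a8 and Hp in KO at 7 h was smaller than the sum of their SDs. The plot of CPM by library shows the 9 courses.

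**Figure D1:**
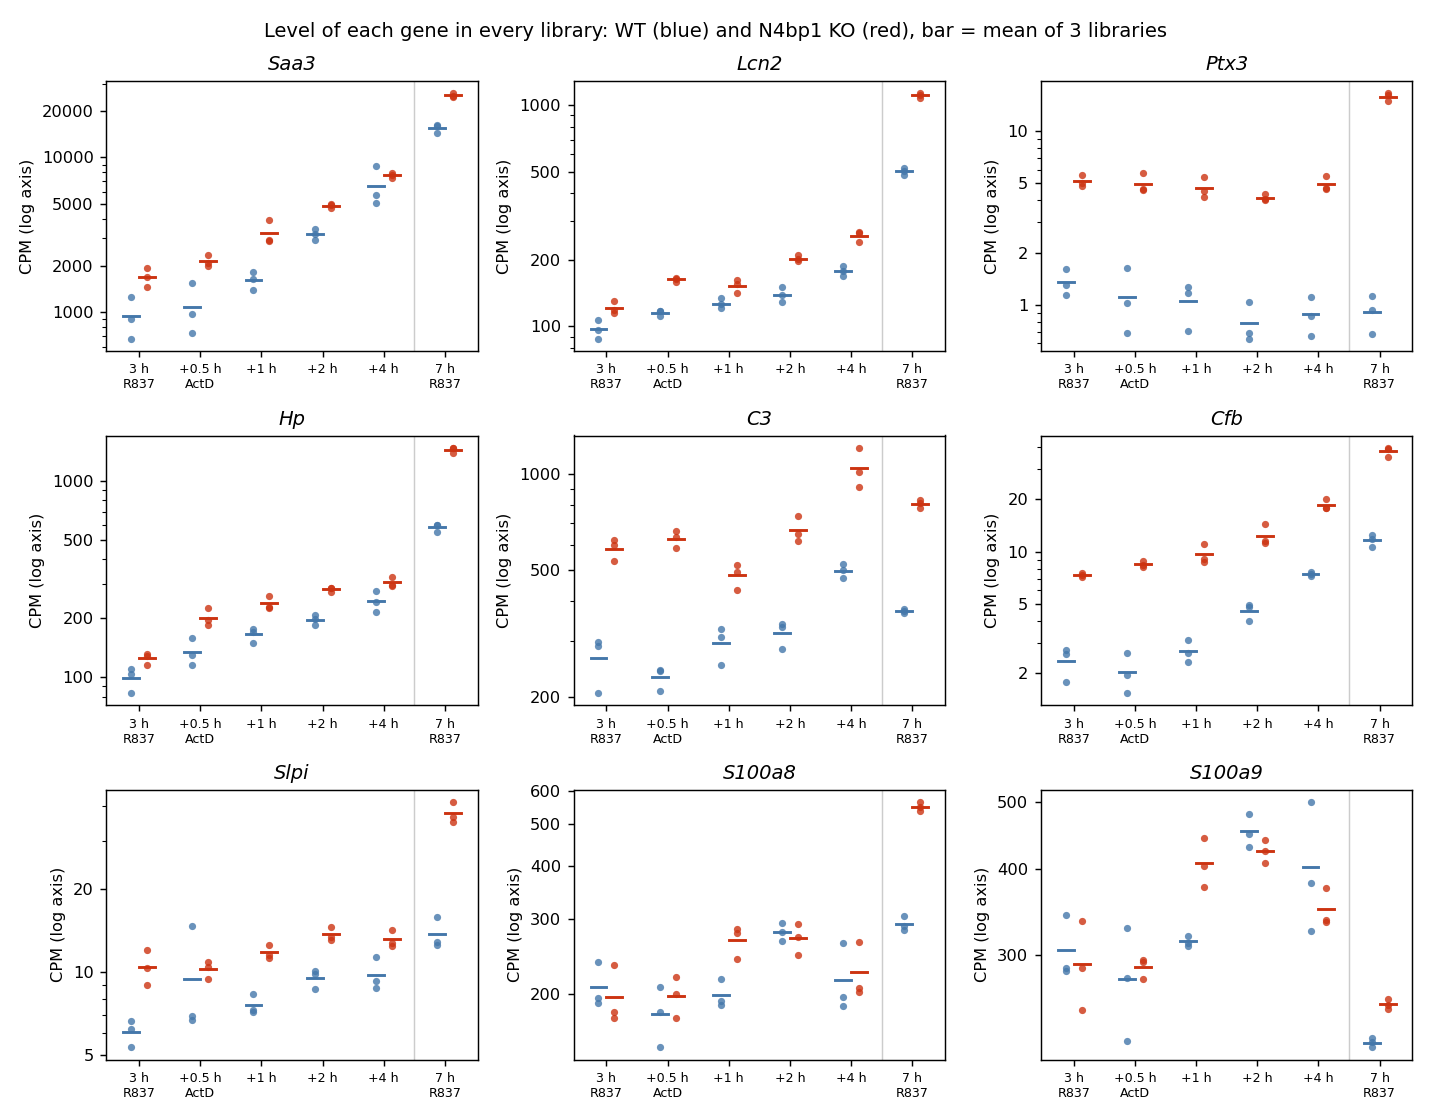
Level of each gene in all 36 libraries, in TMM-scaled CPM on log axes; points are libraries, bars the mean of 3, WT in blue and KO in red, with the ActD times before the grey line and 7 h of R837 after it. KO points lie above all WT points at 7 h in every panel, by most in Ptx3 (14.82 to 16.52 against 0.68 to 1.13 CPM).

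Between genotypes, the 9 genes moved in 1 direction wherever a difference passed the test. At 3 h, 7 of 9 were higher in KO and 0 lower, while 15.2% of the 13748 genes tested were higher. At 7 h, 8 of 9 were higher and 0 lower, against 15.5% of all genes, and the median difference was 1.14 on the log2 scale over the 9 and -0.01 over all genes. Libraries of the 2 genotypes did not overlap for 9 of the 9 genes at 7 h, against 52.2% of all genes tested. Under ActD the members higher in KO numbered 6 of 9 after 0.5 h (13.7% of all genes) and 9 of 9 after 1 h (7.51%). They numbered 7 of 9 after 2 h (14.7%) and 5 of 9 after 4 h (17.7%), with 0 lower at each time. The count after 4 h was 8 with libraries scaled on ribosomal protein and elongation factor genes. That scaling took away the call on Lcn2 after 1 h (0.14, adjusted p = 0.394). With TMM the call on S100a9 after 1 h was lost without KO replicate 2 (0.32, adjusted p = 0.0717). Tests were edgeR quasi-likelihood F tests with Benjamini-Hochberg adjustment over all genes at 0.05, and changes are log2 ± SE. This SE is the size of the change divided by the square root of F, with spread estimated over all libraries of the model.

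Saa3, the serum amyloid A made outside the liver (ENSMUSG00000040026, chromosome 7, 46711998 to 46715700, minus strand), took most counts of the 9 in every group. At 3 h its WT libraries held 676.5, 902.9 and 1264 CPM and its KO libraries 1464, 1694 and 1931 CPM. At 7 h the WT libraries held 14480, 16150 and 16010 CPM and the KO libraries 24420, 25960 and 25100 CPM. Every KO library was above every WT library at both times, although WT at 3 h spread widely (coefficient of variation 31.3%). The difference was 0.84 ± 0.18 at 3 h (1.79-fold, adjusted p = 5.39e-04) and 0.70 ± 0.18 at 7 h (1.62-fold, adjusted p = 0.00232). After 4 h of ActD, WT held 5064, 5690 and 8762 CPM and KO 7390, 7910 and 7670 CPM. A single WT library exceeded the KO libraries there, and the difference of 0.24 ± 0.18 did not pass (adjusted p = 0.326). Without that library it was 0.51 (adjusted p = 0.0369). Of the 50-base windows of Saa3 transcripts, 4.2% also occurred in other genes, 519 of them. How many reads fell in those windows was not tested.

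Lcn2 (ENSMUSG00000026822, chromosome 2, 32384633 to 32388252, minus strand) and Hp (ENSMUSG00000031722, chromosome 8, 109575128 to 109579172, minus strand) followed nearly the same course. Lcn2 lay at 88.2, 107.2 and 95.98 CPM in WT and 118.3, 129.9 and 115.1 CPM in KO at 3 h. At 7 h it lay at 485.2, 506 and 522.6 CPM in WT and 1079, 1133 and 1117 CPM in KO. The genotypes were apart at both times, by 1.25-fold at 3 h (0.32 ± 0.07, adjusted p = 4.85e-04) and 2.2-fold at 7 h (1.14 ± 0.07, adjusted p = 2.45e-17). For Hp the 3 h libraries held 83.37, 104 and 110.6 CPM in WT and 116.4, 128.8 and 131.7 CPM in KO. Its 7 h libraries held 551.8, 595.7 and 598.3 CPM in WT and 1385, 1480 and 1473 CPM in KO. Haptoglobin transcript was thus apart by genotype too, with 1.26-fold more in KO at 3 h (0.34 ± 0.10, adjusted p = 0.00836) and 2.48-fold more at 7 h (1.31 ± 0.10, adjusted p = 1.79e-14). The Hp difference at 3 h lost its call without WT replicate 1 (0.23, adjusted p = 0.106), as did that after 4 h of ActD without WT replicate 1 of that group (0.24, adjusted p = 0.0704). Over the 12 group means of log2 CPM, Lcn2 and Hp had a Pearson r of 0.98, given as a description, since the means share libraries and scaling.

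Ptx3, the long pentraxin (ENSMUSG00000027832, chromosome 3, 66219910 to 66225805, plus strand), had the widest gap between genotypes of the 9 in each of the 6 conditions. Its WT libraries held 1.144, 1.306 and 1.617 CPM at 3 h, and its KO libraries 4.836, 5.02 and 5.556 CPM. At 7 h, WT held 0.6798, 0.9316 and 1.126 CPM, and KO 14.82, 16.52 and 16.14 CPM. No WT library reached the lowest KO library in any condition. The difference was 1.91 ± 0.19 at 3 h (3.75-fold, adjusted p = 8.16e-10) and 4.11 ± 0.19 at 7 h (17.3-fold, adjusted p = 1.87e-20). These WT values rest on few reads, 21 to 51 counts per library at 3 h and 7 h, against 135 to 423 in KO. Ptx3 lies within Veph1, on the other strand, which had at most 2 counts per library.

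C3, the central complement component (ENSMUSG00000024164, chromosome 17, 57203970 to 57228136, minus strand), differed between genotypes by a similar amount at both times. WT libraries held 205.3, 297.8 and 288.6 CPM at 3 h, and KO libraries 597.2, 618.5 and 532.1 CPM. At 7 h they held 370.6, 365.6 and 376.3 CPM in WT and 781.1, 808.1 and 829.3 CPM in KO. All KO libraries at 3 h were above all WT libraries at 7 h. KO held 2.21-fold more at 3 h (1.14 ± 0.11, adjusted p = 8.46e-11) and 2.17-fold more at 7 h (1.12 ± 0.11, adjusted p = 2.70e-11). Under ActD the KO minus WT difference ranged from 0.70 ± 0.11 after 1 h to 1.44 ± 0.11 after 0.5 h, and each passed. On the TMM scale C3 levels were highest after 4 h of ActD, at 470.3, 521.3 and 498.8 CPM in WT and 1209, 1017 and 910.1 CPM in KO, an order against 7 h that turned under ribosomal scaling (7 h minus 4 h of ActD at 0.29 in WT and 0.05 in KO on the log2 scale).

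Cfb, factor B of the alternative pathway (ENSMUSG00000090231, chromosome 17, 34856374 to 34862518, minus strand), had a larger genotype difference than C3 in each of the 6 conditions, at lower counts. It lay at 1.771, 2.719 and 2.599 CPM in WT and 7.328, 7.549 and 7.119 CPM in KO at 3 h. At 7 h WT held 10.59, 11.75 and 12.52 CPM and KO 35.06, 38.76 and 39.55 CPM. Within each condition no library of one genotype reached the other. The fold was 3.09 at 3 h (1.63 ± 0.15, adjusted p = 5.11e-11) and 3.25 at 7 h (1.70 ± 0.11, adjusted p = 9.19e-16). Of its 50-base windows, 73% also lie in the overlapping gene model Gm20547, which was counted at 0 in every library. How reads shared by both were assigned is not given in the sources used here, so the Cfb level is uncertain.

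Slpi, the leukocyte protease inhibitor (ENSMUSG00000017002, chromosome 2, 164354070 to 164389095, minus strand), was a low-level transcript. Its WT libraries held 6.198, 5.331 and 6.625 CPM at 3 h and 12.59, 12.83 and 15.86 CPM at 7 h. The KO libraries held 12.02, 8.978 and 10.37 CPM at 3 h and 36.64, 35.19 and 41.43 CPM at 7 h. The genotypes were apart at both times, with 1.73-fold more in KO at 3 h (0.79 ± 0.18, adjusted p = 7.90e-04) and 2.75-fold more at 7 h (1.46 ± 0.15, adjusted p = 3.62e-10). After 0.5 h of ActD a single WT library, replicate 2, stood apart with 14.78 CPM of Slpi against 6.719 and 6.932 CPM in the others. The same library held 39.5 CPM of Ctsg, 22.94 of Elane and 25.24 of Prtn3, which encode serine proteases of neutrophil granules and of granulocyte precursors, where the other 2 held 2.14 to 6.004 CPM of each. With it the genotype difference after 0.5 h was 0.09 ± 0.17 (adjusted p = 0.756), and without it 0.59 (adjusted p = 0.00134). KO replicate 1 at 3 h also held more of these proteases (Ctsg 23.74 CPM, against 5.057 and 3.21) and the highest Slpi of its group. The call after 2 h of ActD (0.52 ± 0.17, adjusted p = 0.0173) was lost without replicate 1 of either genotype (0.47 and 0.46, adjusted p = 0.0637 and 0.0664), and that after 4 h just missed (0.42 ± 0.17, adjusted p = 0.0503) but passed without WT replicate 3 (0.54, adjusted p = 0.0368).

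**Figure D2:**
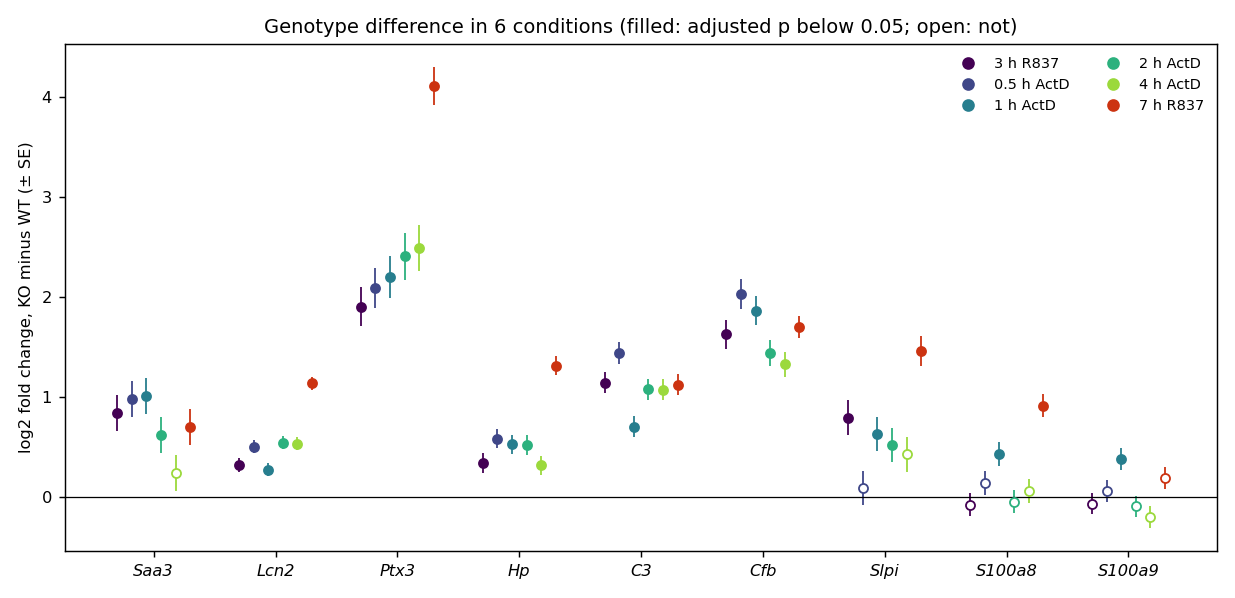
KO minus WT difference of each gene (log2 ± SE from the model of 36 libraries, n = 3 per group) in the 6 conditions, filled where the adjusted p is below 0.05. Ptx3 at 7 h is the highest point at 4.11, and the open points belong to Saa3, Slpi, S100a8 and S100a9.

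The calgranulin genes S100a8 (ENSMUSG00000056054, chromosome 3, 90668978 to 90670035, plus strand) and S100a9 (ENSMUSG00000056071, chromosome 3, 90692632 to 90695721, minus strand) are neighbours whose proteins form a pair. Their transcripts took different courses from 3 h to 7 h of R837, but not under ActD. At 3 h S100a8 lay at 190.1, 195.7 and 237.5 CPM in WT and 176.1, 181.2 and 233.7 CPM in KO. At 7 h it lay at 283.2, 289 and 304.6 CPM in WT and 536.8, 563.5 and 549.3 CPM in KO. The genotypes overlapped at 3 h (-0.08 ± 0.12, adjusted p = 0.664) and were apart at 7 h by 1.88-fold (0.91 ± 0.12, adjusted p = 3.48e-08). S100a9 lay at 286.5, 284.2 and 342.6 CPM in WT and 249, 286.3 and 335.8 CPM in KO at 3 h. At 7 h its WT libraries held 223.5, 219.6 and 226.6 CPM and its KO libraries 253.5, 258.2 and 249.5 CPM. Here the 7 h libraries were apart, but the 1.14-fold difference did not pass (0.19 ± 0.11, adjusted p = 0.21); with spread estimated from the 6 libraries compared alone it did (0.19, adjusted p = 3.72e-06). After 1 h of ActD both were higher in KO, S100a8 by 0.43 ± 0.12 (adjusted p = 0.00765) and S100a9 by 0.38 ± 0.11 (adjusted p = 0.011), the latter not without KO replicate 2 (0.32, adjusted p = 0.0717). After 4 h S100a9 was at -0.20 ± 0.11 (adjusted p = 0.142), and at -0.33 without WT replicate 1 (adjusted p = 0.0154). Under ActD both genes had their highest mean after 2 h in both genotypes. S100a8 went from 207.8 to 279.8 CPM in WT and from 197 to 270.1 in KO over those 2 h. S100a9 went from 304.4 to 453.7 CPM in WT and from 290.4 to 424.5 in KO. After 4 h all were lower than after 2 h. Over the 12 group means, the 7 h groups among them, the r between both genes was -0.11, whereas S100a8 had 0.89 with Hp and 0.88 with Slpi.

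Of the 16 neutrophil markers, most had a lower mean at 7 h than at 3 h in both genotypes, beside the rise of S100a8. Higher means at 7 h were those of Mmp8, Csf3r and Cxcr2 in both genotypes and of Stfa2l1 in KO alone. Ngp, the neutrophilic granule protein, went from a mean of 86.28 ± 6.7 CPM in WT and 95.54 ± 2.79 CPM in KO at 3 h to 39 ± 3.89 and 48.23 ± 4.95 CPM at 7 h, with no overlap between times. Ltf, lactoferrin, went from 27.96 ± 1.36 and 30.41 ± 0.37 CPM to 10.15 ± 0.47 and 8.723 ± 0.638 CPM. Mmp8, the neutrophil collagenase, instead went up, from 10.79 ± 1.23 CPM in WT and 12.61 ± 1.28 CPM in KO to 18.32 ± 0.742 and 19.34 ± 1.52 CPM, as did Csf3r, the receptor of granulocyte colony-stimulating factor, from 19.08 ± 2.61 and 30.2 ± 2.44 CPM to 77.21 ± 4.36 and 121.4 ± 2.42 CPM. Camp, which encodes the granule peptide cathelicidin, lay lower at 7 h in WT and overlapped between times in KO. Ngp, Ltf, Mmp8, Csf3r and Camp were picked after their values were seen. The part of neutrophil transcripts in the S100a8 course was not tested.

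**Figure D3:**
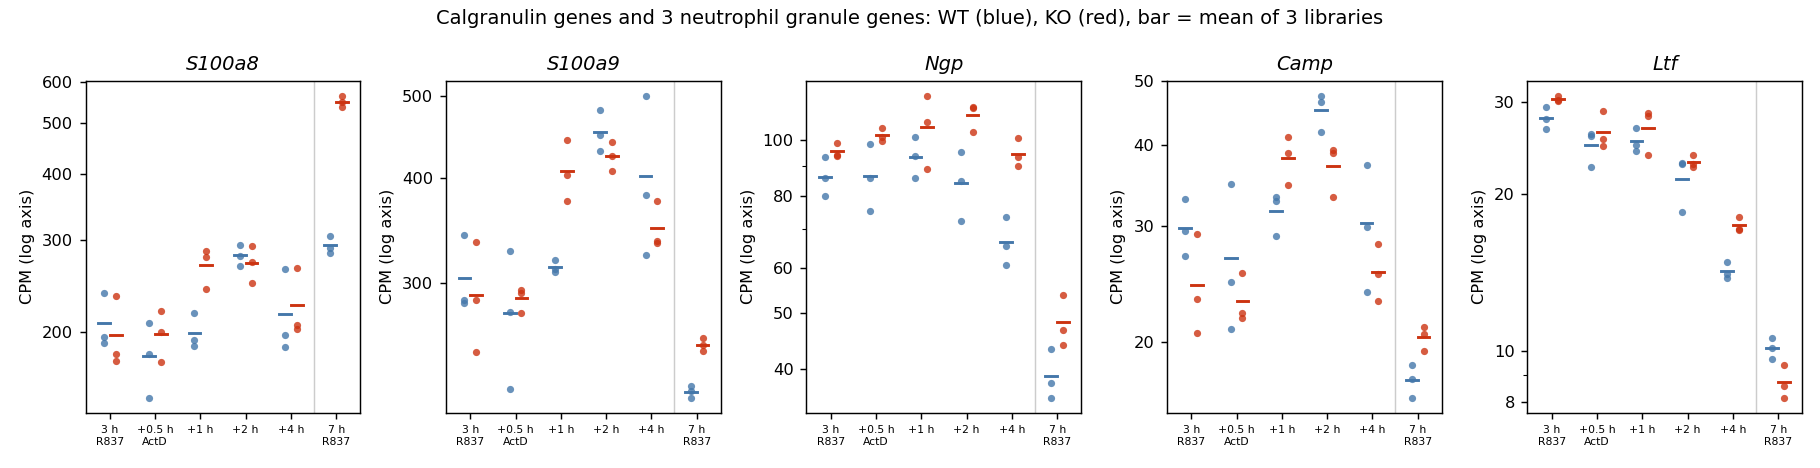
S100a8 and S100a9 beside the neutrophil granule genes Ngp, Camp and Ltf in all 36 libraries, in TMM-scaled CPM on log axes; points are libraries, bars the mean of 3, WT in blue and KO in red. From 3 h to 7 h of R837 S100a8 goes up in both genotypes, to 536.8 to 563.5 CPM in KO, while Ngp and Ltf go down.

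Between 3 h and 7 h of R837 most of the 9 rose. In WT 7 rose and 2 fell, where 27.3% of all genes rose and 30.7% fell. In KO, 8 rose and 0 fell, where 28.7% of all genes rose. Saa3 rose most, 16.4-fold in WT (4.04 ± 0.20) and 14.8-fold in KO (3.89 ± 0.20). Hp rose 5.86-fold in WT and 11.5-fold in KO, and Lcn2 5.2-fold and 9.16-fold. Cfb rose 4.88-fold and 5.15-fold, Slpi 2.27-fold and 3.6-fold, and C3 1.4-fold and 1.38-fold. The members that fell in WT were S100a9 (-0.45 ± 0.11, adjusted p = 4.85e-04) and Ptx3 (-0.58 ± 0.25, adjusted p = 0.0404), and the call on Ptx3 was lost under 9 alternatives, among them without WT replicate 2 or 3 at 3 h (-0.61 and -0.43) and without WT replicate 1 or 2 at 7 h (-0.41 and -0.60). S100a9 did not pass in KO (-0.19 ± 0.11, adjusted p = 0.12), but did without KO replicate 1 at 3 h (-0.30, adjusted p = 0.0273), and Ptx3 rose there 3.09-fold (1.63 ± 0.15, adjusted p = 5.40e-12).

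The change from 3 h to 7 h itself differed between genotypes for 4 of the 9, all with the higher value in KO, where 5.45% of all genes passed in that direction. For Ptx3, which changed by -0.58 in WT, it was higher by 2.21 ± 0.29 in KO (adjusted p = 2.91e-07). S100a8 rose by 0.99 ± 0.16 more in KO (adjusted p = 2.01e-05), Hp by 0.98 ± 0.14 more (adjusted p = 9.03e-07) and Lcn2 by 0.82 ± 0.09 more (adjusted p = 1.77e-08). For Slpi the extra rise of 0.67 ± 0.23 just missed (adjusted p = 0.0538), and it passed without KO replicate 1 at 3 h, WT replicate 2 at 3 h or WT replicate 3 at 7 h (0.79, 0.75 and 0.78). For the complement genes and Saa3 no difference passed: it was -0.02 ± 0.15 for C3, 0.08 ± 0.19 for Cfb and -0.15 ± 0.25 for Saa3.

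ActD is used to follow transcripts that were already made. Over 4 h after its addition, 2 short-lived regulators of this gene class fell steeply: Nfkbiz, which encodes an inducible NF-κB cofactor, to -6.95 on the log2 scale in WT and -6.77 in KO, and Cebpd, which encodes C/EBP delta, to -4.79 in WT and -4.45 in KO. The furthest fall among the 9 over the same 4 h was by 0.63, of Ptx3 in WT. Because TMM sets the average transcript to 0, a rise under ActD is a rise relative to the other transcripts. No spike-in scale was used, and transcription that went on under ActD was not measured. As straight lines over 0 to 4 h, 7 of the 9 rose and 1 fell in WT, where 35.5% of 13537 genes rose and 34.8% fell. In KO, 5 rose and 0 fell, where 32.3% of all genes rose.

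Saa3 rose fastest against the average transcript, by 0.75 ± 0.05 log2 units per hour in WT (adjusted p = 1.78e-14) and 0.55 ± 0.05 in KO (adjusted p = 5.49e-11). Its libraries after 4 h of ActD held 6.86-fold more CPM than before in WT and 4.51-fold more in KO. Cfb followed with 0.49 ± 0.04 per hour in WT and 0.34 ± 0.03 in KO, then Hp with 0.31 ± 0.04 and 0.26 ± 0.04, C3 with 0.27 ± 0.04 and 0.23 ± 0.04, and Lcn2 with 0.22 ± 0.02 and 0.25 ± 0.02. Ptx3 was the member that fell, by 0.15 ± 0.07 per hour in WT (adjusted p = 0.0481), a call lost under 8 alternatives and with values of -0.16 to -0.12 without WT replicate 1, 2 or 3 at 0 h, 2 at 0.5 h, 1 or 3 at 1 h or 3 at 4 h of ActD; in KO its slope was -0.01 ± 0.05 (adjusted p = 0.851). Slpi passed in WT alone (0.14 ± 0.05, adjusted p = 0.0136; KO 0.10 ± 0.05, adjusted p = 0.055), as did S100a9 (0.16 ± 0.04, adjusted p = 0.00103; KO 0.08 ± 0.04, adjusted p = 0.125). The Slpi slope lost its call in WT without replicate 3 at 4 h (0.11, adjusted p = 0.104) and gained one in KO without replicate 1 at 0 h (0.11) or replicate 1 or 2 at 4 h (0.13 and 0.12). With libraries scaled on 73 ribosomal protein and elongation factor genes instead, the median slope of all genes moved to -0.18 in WT and -0.14 in KO, and the WT slopes of Slpi, S100a8 and S100a9 turned negative, as did the KO slope of S100a8. Under that scaling the slopes of C3 (0.08 in WT and 0.09 in KO) and of Lcn2 in WT (0.03, adjusted p = 0.474) no longer passed, that of Ptx3 in KO passed as a fall (-0.15, adjusted p = 0.0129), and Saa3 still rose (0.55 in WT and 0.41 in KO). Over 0 to 2 h alone the C3 slope did not pass in either genotype (0.17 and 0.07, adjusted p = 0.0646 and 0.495). Nor did that of Slpi in WT (0.22, adjusted p = 0.0873). In that window the S100a8 slope passed as a rise in both genotypes (0.24 in WT and 0.25 in KO, adjusted p = 0.00546 and 0.00595). The S100a9 slope in KO passed there too (0.305, adjusted p = 0.000624).

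No difference in slope between genotypes passed among the 9. With the edgeR test 0 of 9 passed in either direction, where 0.0517% of all genes had a higher slope in KO and 0.0148% a lower one. At an unadjusted p below 0.05 there were 2: Cfb, with -0.15 ± 0.05 per hour in KO minus WT (adjusted p = 0.435), and Saa3, with -0.20 ± 0.08 (adjusted p = 0.498). DESeq2 passed 0 of the 9 as well. For Ptx3, the member with the widest genotype gap, the slope difference was 0.14 ± 0.08 per hour (adjusted p = 0.654), and for the other 6 it lay between -0.09 and 0.03.

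**Figure D4:**
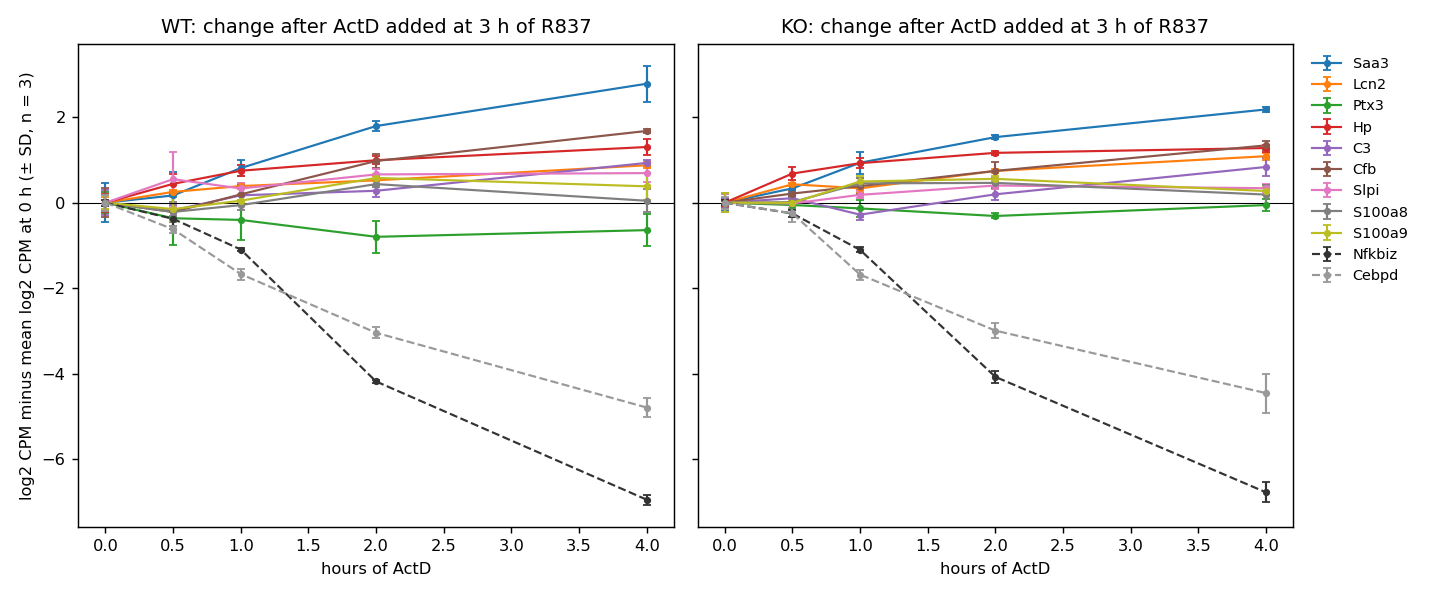
Change in log2 CPM (mean ± SD, n = 3) from the start of ActD, added at 3 h of R837, in WT and KO, for the 9 genes (solid) and for Nfkbiz and Cebpd (dashed). In the fitted contrasts after 4 h, Nfkbiz lies at -6.95 in WT and -6.77 in KO, Saa3 at 2.78 and 2.17, and the other members between -0.63 and 1.65.

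Cells left in R837 to 7 h and cells given ActD from 3 h to 7 h started from the same time point, so their comparison sets levels with and without ActD over the same 4 h. In WT, 6 of the 9 were higher without ActD and 2 lower, where 37.9% of all genes were higher and 37.3% lower. In KO, 7 were higher and 2 lower, where 38% were higher and 36.1% lower. Saa3 was 2.39-fold higher in WT and 3.29-fold in KO, Lcn2 2.84-fold and 4.31-fold, and Hp 2.38-fold and 4.74-fold. C3 and S100a9 were the members lower without ActD, C3 by -0.42 ± 0.11 in WT and -0.38 ± 0.11 in KO and S100a9 by -0.85 ± 0.11 and -0.46 ± 0.11. Under the ribosomal scaling all 4 of these calls were lost: C3 turned to 0.29 in WT (adjusted p = 0.0541) and 0.05 in KO (adjusted p = 0.765), and S100a9 lay at -0.11 (adjusted p = 0.17) and -0.03 (adjusted p = 0.736). The KO call of C3 was lost without KO replicate 1 at 4 h of ActD (-0.23, adjusted p = 0.0653). Slpi, 1.4-fold higher in WT and 2.87-fold in KO, lost its WT call without WT replicate 3 at 7 h (0.38, adjusted p = 0.066). Ptx3 did not pass in WT (0.05 ± 0.29, adjusted p = 0.88), but did under the ribosomal scaling (0.76, adjusted p = 0.0184), and was 3.2-fold higher in KO (1.68 ± 0.15, adjusted p = 1.21e-12).

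This gap between 7 h of R837 and ActD was itself larger in KO for 5 of the 9, where 6.71% of all genes passed in that direction. The difference was 1.63 ± 0.34 for Ptx3 (adjusted p = 6.89e-04), 1.03 ± 0.23 for Slpi (adjusted p = 0.00137), 1.00 ± 0.13 for Hp (adjusted p = 5.84e-07), 0.86 ± 0.16 for S100a8 (adjusted p = 2.32e-04) and 0.60 ± 0.09 for Lcn2 (adjusted p = 8.33e-06). The Lcn2 call was lost under the ribosomal scaling (0.33, adjusted p = 0.109). It was 0.46 ± 0.25 for Saa3 (adjusted p = 0.232), 0.37 ± 0.17 for Cfb (adjusted p = 0.133), 0.39 ± 0.15 for S100a9 (adjusted p = 0.0809, and 0.51 with adjusted p = 0.0129 without WT replicate 1 at 4 h of ActD) and 0.05 ± 0.15 for C3 (adjusted p = 0.874). This comparison and the one of 7 h with 3 h share the 7 h libraries.

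Other acute-phase genes were on a list of 26, of which 13 were tested. At 7 h 7 of the 13 were higher in KO and 0 lower, where 15.5% of all genes were higher and 15.1% lower. At 3 h 4 were higher and 0 lower, beside 15.2% and 12.6% of all genes. Their median difference at 7 h was 0.68, against -0.01 for all genes. Cp, ceruloplasmin, a copper-carrying ferroxidase, was 2.2-fold higher in KO at 7 h (1.14 ± 0.11, adjusted p = 9.22e-11) and rose 11.6-fold in WT and 12.5-fold in KO from 3 h to 7 h. Saa1, a serum amyloid A that the liver makes, was counted 7 to 211 times per library and was 2.6-fold higher in KO at 7 h (1.38 ± 0.17, adjusted p = 1.12e-08). The metallothionein genes Mt2 and Mt1 were 2.41-fold and 1.68-fold higher in KO at 7 h and did not pass at 3 h (adjusted p = 0.653 and 0.688). Il1rn, which encodes the interleukin 1 receptor antagonist, was 1.48-fold higher in KO at both times. Transcripts of the short pentraxins Apcs and Crp had at most 1 and 2 counts in a library and were not tested.

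Complement beyond C3 and Cfb went both ways. Of 21 other components 9 were tested, and at 7 h 4 were higher and 2 lower in KO (15.5% and 15.1% of all genes). C4b, a component of the classical pathway, was 2.44-fold higher (1.29 ± 0.27, adjusted p = 2.26e-04) at a low level of 14 to 146 counts per library, and its copy C4a had at most 3 counts. C1ra, a protease of the classical pathway, was 1.43-fold higher, and Cfp, properdin, which stabilises the alternative pathway convertase, 1.14-fold. C1qc and C1qa, chains of the recognition protein C1q, were lower by -0.19 ± 0.06 (adjusted p = 0.00771) and -0.17 ± 0.06 (adjusted p = 0.0236). Of 18 regulators and receptors 13 were tested, with 4 higher and 3 lower in KO at 7 h, beside the same shares of all genes. C3ar1, the receptor of the C3a fragment, did not pass at 3 h (-0.14 ± 0.08, adjusted p = 0.187) and was lower by -1.54 ± 0.08 at 7 h (adjusted p = 1.72e-18). Cd59a, which blocks the membrane attack complex, was lower too (-0.67 ± 0.10), whereas Cd55, which speeds decay of the convertases, was 1.93-fold and Serping1, the C1 inhibitor, 2.24-fold higher.

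For the partners of the other members, counts went both ways. Among 16 tested genes of iron handling and haptoglobin uptake, 4 were higher and 7 lower in KO at 7 h, where 15.5% of all genes were higher and 15.1% lower. Mmp9, the gelatinase that lipocalin 2 binds, was 1.95-fold higher. Cd163, the haptoglobin-hemoglobin receptor, was lower by -2.10 ± 0.51 (adjusted p = 0.00118), with 0.6262 CPM in WT and 0.1411 CPM in KO, and Slc40a1, the iron exporter, by -0.96 ± 0.14. Hmox1, heme oxygenase 1, rose 6.27-fold in WT over time and was lower in KO at 7 h (-0.44 ± 0.07). Of 11 tested receptors of S100 and serum amyloid proteins, 5 were higher and 4 lower at 7 h, beside those same shares, Cd14 by 0.85 ± 0.05, the formyl peptide receptor Fpr1 by 0.87 ± 0.07 and Tlr2 by 0.51 ± 0.06 among the higher and P2rx7, a purine receptor, by -1.20 ± 0.10 among the lower.

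Of the 13 other S100 genes 7 were tested, and 0 of them were higher in KO at 3 h or 7 h. Of the 7, 5 were lower in KO at 3 h (12.6% of all genes) and 3 at 7 h (15.1%), among them S100a6 (-0.41 ± 0.09 at 7 h, adjusted p = 2.60e-04), S100a10 (-0.40 ± 0.09, adjusted p = 3.64e-04) and S100a4 (-0.33 ± 0.11, adjusted p = 0.0161). After 1 h of ActD none of the 7 passed in either direction, and their median was 0.10 on the log2 scale. Of 15 tested protease inhibitors beside Slpi, 5 were higher and 1 lower in KO at 7 h (15.5% and 15.1% of all genes). Serpinb2 was 3.61-fold higher and Timp1, which inhibits matrix metalloproteases, 2.18-fold, while Serpinb6a was lower (-0.66 ± 0.09).

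A list of 24 genes held inducing cytokines and transcription regulators of acute-phase genes. It also held genes that are not inducers: the receptors Il6ra, Il6st and Il1r1, the signalling inhibitor Socs3, and Zc3h12a and Zc3h12c. At 3 h 18 of the 24 were higher in KO and 0 lower (15.2% and 12.6% of all genes). At 7 h 19 were higher and 2 lower (15.5% and 15.1%). Il6 lay at 32.32, 37.46 and 41.59 CPM in WT and 81.46, 97.07 and 112.2 CPM in KO at 3 h. At 7 h it lay at 27.16, 28.37 and 29.1 CPM in WT and 360.9, 362.5 and 370.5 CPM in KO, a 12.9-fold difference. Il1b, the cytokine interleukin 1 beta, was at 2209 ± 37.2 CPM in WT and 8809 ± 121 CPM in KO at 7 h, and Il1a and Tnf were 8.3-fold and 2.37-fold higher in KO. From 3 h to 7 h in WT the list went mostly down, with 5 higher and 15 lower where 27.3% of all genes rose and 30.7% fell, Rel and Nfkbiz among them (-1.61 ± 0.08 and -1.33 ± 0.08), while 7 of the 9 secreted proteins rose. Zc3h12a, which encodes the RNA-degrading protein regnase 1, was at 160 ± 4.03 CPM in WT and 254.7 ± 1.55 CPM in KO at 7 h.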

How the data were processed

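Reads of 36 libraries (TruSeq RNA kit, single-end) were aligned with GSNAP to GRCm38, per the submitters' processing notes. Which program counted reads, on which annotation and strand, is not given in the sources used here. Per the file headers, the deposited values were a raw count per gene, used for all tests, an RPKM set by the authors, used to compare levels between genes, and a gene width in bases. Of 52636 identifiers, 52489 were named from GENCODE M21.

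Counts were filtered with filterByExpr, scaled by TMM and tested in edgeR 4.0.16 (R 4.3.3, limma 3.58.1) with quasi-likelihood F tests and Benjamini-Hochberg adjustment over all genes tested. A model of 12 group means on 36 libraries (13748 genes) gave the contrasts, and straight lines over hours of ActD on 30 libraries (13537 genes) gave the slopes. The biological coefficient of variation was 7.48%. The method was tested on simulated data. Depths of 20.27 to 46.11 M counts leave genes under about 50 counts, such as Ptx3 in WT, with the largest errors. Replicate numbers below are in record order and name a library only. Libraries of different conditions may share mice, which the model does not use, so p-values may be too small.

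The members, the gene lists and the alternatives (RLE and ribosomal scaling, DESeq2 1.42.0, no filter, a stricter filter, adjusted p below 0.01, only the libraries compared, each library left out, slopes over 0 to 2 h, 4 h against 0 h) were chosen with earlier results of these data known. Named genes were the 9 members, N4bp1, Il6, Il1b, Nfkbiz, Cebpd, Zc3h12a, the 4 genes of each list with the smallest p in KO minus WT at 7 h and the 2 with the smallest in 7 h minus 3 h in WT, and the 3 genes most like each member. A few genes this rule names are not reported here. Neutrophil granule genes were shown after their values were seen.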

Additional observations from a re-analysis of the deposited data

Results flagged for a closer look

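For 4 genes the change from 3 h to 7 h of R837 differed between KO and WT by the interaction test: Ptx3 by 2.207 (log2, KO minus WT), S100a8 by 0.989, Hp by 0.975 and Lcn2 by 0.818. For 5 genes the difference between 7 h of R837 and 3 h of R837 with 4 h of ActD also differed between KO and WT: Ptx3 by 1.626, Slpi by 1.034, Hp by 0.996, S100a8 by 0.855 and Lcn2 by 0.604. Both comparisons use the same 7 h libraries. Each value is positive, so each of these log2 differences was higher in KO than in WT. From 3 h to 7 h Ptx3 did not gain in WT (-0.58).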

How the results depend on the processing

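Of 2268 values of single members under the alternatives, 2182 kept their direction and their side of the threshold, 39 lost a call, 41 gained one and 6 turned with a call on either side; another 43 changed sign with no call under either setting and are counted among the first. The count of members called stayed within 1.5 times in 250 of 252 alternatives. At 7 h all KO minus WT calls were the same under the 13 alternatives except that of S100a9, and Ptx3 ranged from 3.94 to 4.28. The exceptions in count were both under scaling on 73 ribosomal protein and elongation factor genes: 8 members were called in KO minus WT after 4 h of ActD in place of 5, and 5 for the ActD slope in WT in place of 8. That scaling also gave all 6 reversals: C3 between 7 h of R837 and 4 h of ActD at 0.29 in WT and 0.048 in KO, the WT slopes of Slpi (-0.062), S100a8 (-0.115, adjusted p = 0.00338) and S100a9 (-0.035), and the KO slope of S100a8 (-0.083, adjusted p = 0.0311); the cause was not tested. Under it Lcn2 lost its call after 1 h of ActD (0.14, adjusted p = 0.394).

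The ribosomal scaling moved the median of all genes in KO minus WT to 0.21 at 3 h, 0.12, -0.15, 0.14 and 0.29 after 0.5, 1, 2 and 4 h of ActD, and to -0.13 for 7 h minus 3 h in KO. It moved it to 0.69 and 0.41 for 7 h against ActD in WT and KO, and to -0.22 and -0.30 for the genotype differences of both time comparisons. The share of higher among called genes went from 54.7 to 90.5% at 3 h, from 51.9 to 79.6%, 43.1 to 17%, 48.8 to 79.1% and 49.8 to 89.9% at the ActD times, and from 44.3 to 14.5% and 45.8 to 7.19% for those genotype differences. It went from 50.4 to 85.2% (WT) and 51.3 to 74.1% (KO) against ActD, and from 50.5 to 6.93% (WT) and 47.5 to 8.5% (KO) for the slopes.

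Over all genes, 3818 were called in KO minus WT at 3 h, against 2202 without KO replicate 1, 2375 without WT replicate 3 and 2173 at an adjusted p below 0.01. After 0.5 h of ActD 3626 fell to 2047 with only the libraries compared. At the stricter threshold 3626, 2396 and 4146 calls after 0.5, 1 and 2 h of ActD became 2188, 1375 and 2574, and 1690 and 2013 calls of the genotype differences became 1066 and 1082. For the slope difference 9 genes were called, against 0 over 0 to 2 h, 40 for 4 h against 0 h, 16 with DESeq2, 3 at the stricter threshold and 3 to 10 without single libraries. No paired analysis was possible because the labels carry no number that ties libraries of different groups. Counting error limits Ptx3 in WT, with 12 to 62 counts per library.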

Other observations

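The genes whose 12 group means were most like those of each member, among 8113 protein-coding genes with a mean of at least 5 CPM, were as follows, as a description. For Saa3 they included Ncf4 (Pearson r 0.997) and Pirb (0.991). For Lcn2 they were Pilra (0.994), U90926 (0.99) and Rps6ka4 (0.989), and for Hp Lpcat2 (0.988), Lcn2 (0.985) and Scarf1 (0.98). Ptx3 was most like Rbpms (0.984), Inhba (0.981) and Maff (0.946). The genes nearest to C3 were Htra1 (0.973), H2-K1 (0.965) and Acp5 (0.964), and those nearest to Cfb were Vasp (0.979), Mmp14 (0.97) and Sirpb1a (0.968). Slpi was most like Hif1a (0.972), Pilrb2 (0.968) and F10 (0.962). Its calgranulin neighbour was not near S100a8, whose list was Tes (0.942), Agpat4 (0.94) and Cnot7 (0.935), nor near S100a9, whose list was Zfand6 (0.942), Bri3 (0.935) and Rbks (0.932). All these points share libraries and scaling.

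Among relatives of the members, Wfdc17 was counted 7677 to 70148 times per library and Wfdc21 169 to 1212 times. Saa2, Saa4 and Orm1 had at most 32, 27 and 45 counts, and Orm2, Orm3 and Hpx at most 3, 2 and 10.

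Of 8 tested B and plasma cell markers, 4 were higher and 1 lower in KO at 3 h, and 3 higher and 0 lower at 7 h. Summed markers of other cells over the 36 libraries were 5.857 to 12.45 CPM for mast cells and basophils and at most 0.9939 CPM for erythroid cells. Of 9 tested fibroblast markers, 6 were higher in KO at 3 h and 7 at 7 h. Of 16 neutrophil markers, 6 were higher at 3 h and 3 at 7 h, and of 9 macrophage markers 3 were higher and 3 lower at 3 h, and 1 higher and 3 lower at 7 h.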
